A study of Mus musculus with 6 samples.

Results

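The genes described here are 33 markers of blood and lymphatic endothelium, the cells that line vessels. They were taken by gene symbol from the platform annotation, with every probe set whose single symbol was that of a member, which gave 58 of 45037 tested probe sets and 33 of 18161 genes. Of the members, 23 mark blood endothelium, 5 mark lymphatic endothelium and 5 are transcription factors of the endothelial and blood lineages. The arrays compared the epithelium and the mesenchyme of the small intestine of mouse embryos from C57BL/6 females at E18.5, shortly before birth, with 3 arrays for each tissue (A, B and C) and no treatment or altered allele. Both tissues came from the whole length between duodenum and cecum, where the epithelium was released in the cold without enzymes and the mesenchyme was what remained. Each array carried RNA of 1 pool of tissue from 3 embryos, so that differences between embryos are averaged within a pool. Pools had been picked for purity by RT-PCR of marker genes that included Madcam1, so the direction of the member Madcam1 is not independent of that choice. The study set out to profile the genes each compartment expresses.

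Endothelial cells hold together through adhesion molecules at their contacts and respond to ligands through receptors such as Tie1, endoglin, the sphingosine-1-phosphate receptor and the apelin receptor. In the gut, capillaries of the villus are fenestrated and take up sugars and amino acids, while the central lymphatic vessel, the lacteal, carries absorbed fat. Lymphatic cells arise from veins under the factor Prox1, and ETS family factors such as Erg, Fli1 and Ets1 act on endothelial genes through a core of the letters GGAA.

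Values are log2 expression values made by RMA, so that a difference of 1 is a 2-fold change. A level below is a log2 value per array, in the order A, B, C. A difference is the mesenchymal minus the epithelial mean of these log2 values, and limma gave the standard error printed after it (3 arrays per tissue). A gene was called at an adjusted p under 0.05 with a difference of at least 1, and where a gene had several probe sets, the one with the highest mean over the 6 arrays stood for it (its representative). Array medians were 8.1 to 8.6 in the epithelium and 8.5 to 8.7 in the mesenchyme, and the number of arrays limits the precision. The 15 probe sets for bacterial control transcripts gave a background limit (mean plus 2 SD) of 7.26 to 7.82 per array. The values carry no detection calls, so a level under this limit cannot be told apart from background and its difference may be understated. A level above the limit may also hold probe background. Arrays of the same tissue correlated at 0.978 to 0.984 across probe sets. Nothing in the labels says whether pools of a tissue came from separate litters. Standard errors and p-values rest on the spread between these pools. For each gene limma drew that spread mostly from all probe sets (31.7 prior against 4 residual degrees of freedom), and less from its own 3 arrays per tissue.

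Endothelial genes were higher in the mesenchyme. Of the 33 members, 29 were called higher there, 0 were called higher in the epithelium, and 4 (Podxl, Egfl7, Prox1 and Erg) were not called by their representative probe set. Of all genes tested, 15.9% were called higher in the mesenchyme and 8.19% in the epithelium, 24.1% in all. The mesenchyme thus held 66.0% of all called genes, and 44.7% to 79.8% of them under the other scalings. Among the called members the measured differences ran from 1.23 (Apln) to 6.33 (Aplnr), the standard errors of the 33 members from 0.23 to 0.26, and the adjusted p-values of the called ones from 6.64e-22 to 3.91e-05. The median difference was 2.50 over the members and 0.17 over all genes. For 11 of the called members every epithelial array was under the background limit and every mesenchymal array above it, so that only a lower bound of the fold is measured (the mesenchymal mean over the mean of the limits). By representative probe set, mesenchymal levels were at least 36.5-fold higher for Aplnr and Plvap and at least 23.5-fold for Cd93. They were at least 21.9-fold higher for Lyve1 and at least 12.3-fold for Stab1. For Tie1, Vwf, Rasip1, Calcrl, Mmrn1 and Tal1 the bound ran from at least 2.50-fold (Tal1) to at least 10.0-fold (Mmrn1). Other probe sets of the same gene can fall below its bound, among them 1423037_at of Aplnr (4.81-fold) and 1441908_x_at of Cd93 (0.79-fold). With these 11 at their bound the median difference of the members was still 2.50. By group, 21 of 23 blood endothelial members (median 2.70), 4 of 5 lymphatic members (median 4.10) and 4 of 5 transcription factor members (median 1.53) were called. All 3 mesenchymal arrays lay above all 3 epithelial arrays for 32 of the 33 members, the exception being Podxl, and 30.5% of all genes showed such a separation. Counted by probe set, 47 of 58 were called higher in the mesenchyme, against 15.5% of all probe sets, and 0 were called higher in the epithelium, against 5.98%. In bulk tissue, fewer endothelial cells and less RNA per endothelial cell cannot be told apart.

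**Figure D1:**
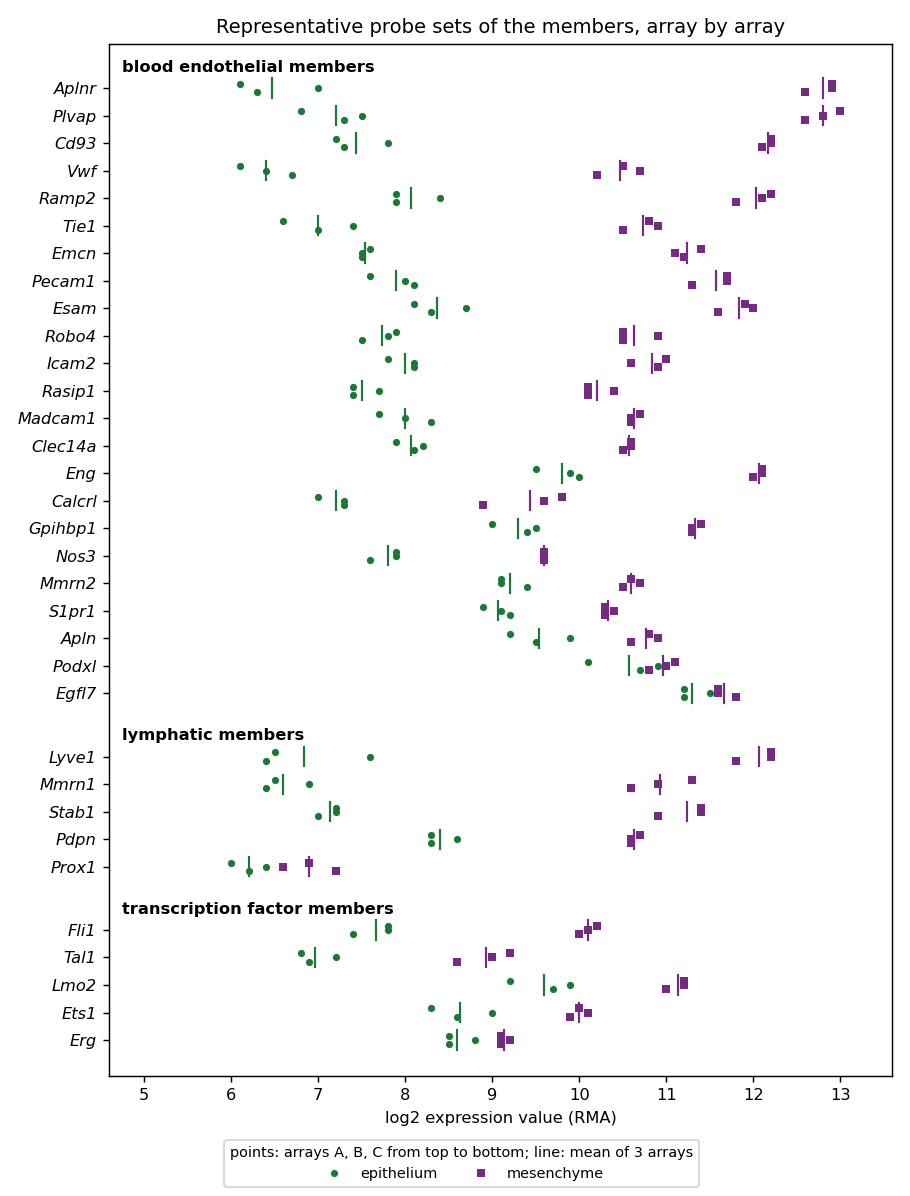
Log2 expression values (horizontal axis) of the representative probe set of each of the 33 members in the 3 epithelial (circles) and 3 mesenchymal arrays (squares), with vertical lines at the means of 3 arrays and genes ordered by difference within their group. The tissues separate for 32 members, by a mean of 6.33 for Aplnr and of 0.40 for Podxl, where the arrays overlap.

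The tissue labels were compared with 4 defining endothelial markers that are no members, listed for this check with earlier results known. Cdh5, the cadherin of endothelial junctions, averaged 8.10 on epithelial and 10.73 on mesenchymal arrays. Tek, the angiopoietin receptor, was at 6.40 and 10.90, Kdr, the main VEGF receptor, at 9.50 and 11.63, and Cldn5, the endothelial claudin, at 8.87 and 11.27. All 4 were called higher in the mesenchyme and lay above the background limit on its 3 arrays. Cdh5 and Cldn5 also stand in a list of 7 junction genes, of which 3 were called higher in the mesenchyme, 1 in the epithelium and 3 were not called.

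Promoter sequences were read for the members that had a window. RefSeq promoter windows (GRCm38.p6) were found for 16 of the 33 members, with 22 windows in all, and the 250 bases before each start site were searched on both strands. The letters CNGGAAG, a form of the ETS core, were found in 13 of these 16 genes (81.2%), and in 29.2% of 27025 genes with a window. Counted by window they were found in 15 of 22 (68.2%), and in 26.6% of 32851 windows. The letters AGATAA, bound by GATA factors, were found in 2 of the 16 genes (12.5%) and in 11.4% of all genes. The letters CAGATG, an E-box form bound by complexes with Tal1, were found in 6 (37.5%) and in 16.3% of all genes. These shares are descriptions of letters in a window and were not tested, and a match shows neither binding nor a cause. The windows of 4 genes, each ending just before the annotated start of its gene, are printed here 5′ to 3′ along the gene. CNGGAAG matches of either strand are in capitals (on the opposite strand they read CTTCCNG). Tie1, Clec14a and Rasip1 hold matches. Eng holds no CNGGAAG, though the shorter core GGAA does stand in its window. All 4 genes were called higher in the mesenchyme, as were Mmrn1 and Pdpn, whose windows also hold no CNGGAAG. Egfl7, Prox1 and Erg, not called by their representatives, do hold matches.
Tie1, chr4:118489850-118490099, minus strand: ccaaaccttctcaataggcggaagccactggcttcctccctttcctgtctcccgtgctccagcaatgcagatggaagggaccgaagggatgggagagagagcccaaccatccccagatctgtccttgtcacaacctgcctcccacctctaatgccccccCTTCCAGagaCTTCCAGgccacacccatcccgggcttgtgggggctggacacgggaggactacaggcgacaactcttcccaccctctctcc
Clec14a, chr12:58269259-58269508, minus strand: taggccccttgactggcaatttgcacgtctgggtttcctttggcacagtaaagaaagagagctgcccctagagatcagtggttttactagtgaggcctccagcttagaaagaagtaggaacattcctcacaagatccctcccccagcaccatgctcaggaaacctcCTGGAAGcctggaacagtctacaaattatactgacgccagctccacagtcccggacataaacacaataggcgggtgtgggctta
Rasip1, chr7:45627287-45627536, plus strand: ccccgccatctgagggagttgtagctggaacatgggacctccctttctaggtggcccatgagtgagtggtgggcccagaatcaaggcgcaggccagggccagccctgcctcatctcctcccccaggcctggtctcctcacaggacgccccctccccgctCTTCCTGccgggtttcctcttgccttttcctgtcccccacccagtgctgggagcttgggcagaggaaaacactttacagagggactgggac
Eng, chr2:32646345-32646594, plus strand: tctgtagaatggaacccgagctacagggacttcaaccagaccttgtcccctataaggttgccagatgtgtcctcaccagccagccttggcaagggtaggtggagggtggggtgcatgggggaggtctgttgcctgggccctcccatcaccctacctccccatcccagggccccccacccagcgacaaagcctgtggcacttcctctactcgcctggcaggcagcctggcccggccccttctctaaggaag
In Tie1 the matches began 91 and 81 bases before the start, in Clec14a 84 and in Rasip1 91 bases before it.

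Adhesion molecules and sialomucins of the endothelial surface were examined first. Pecam1 (1421287_a_at), an adhesion molecule of endothelial contacts that leukocytes and platelets also carry, was at 7.6, 8.0 and 8.1 on the epithelial arrays and at 11.7, 11.7 and 11.3 on the mesenchymal arrays. Every mesenchymal array stood more than 3 above every epithelial array, and the difference was 3.67 ± 0.23 (adjusted p = 5.65e-16). Esam, an immunoglobulin-type molecule of tight endothelial contacts, differed by 3.47 ± 0.23, and Icam2, a ligand of leukocyte integrins, by 2.83 ± 0.23. Emcn (1425582_a_at), a sialomucin of capillaries and veins, was at 7.6, 7.5 and 7.5 on the epithelial arrays and 11.4, 11.1 and 11.2 on the mesenchymal arrays, a difference of 3.70 ± 0.23. Podxl, a sialomucin of the vessel lumen that podocytes and some epithelia also make, was not called. Its representative (1448688_at) was at 10.1, 10.9 and 10.7 on the epithelial arrays and 11.1, 11 and 10.8 on the mesenchymal arrays. Epithelium B lay above mesenchyme C, the difference was 0.40 ± 0.24 (adjusted p = 0.19), and the other probe set of Podxl gave 0.43 ± 0.23 (adjusted p = 0.144). All 3 epithelial arrays were above the background limit for both Podxl probe sets.

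Plvap, Cd93 and Clec14a encode proteins of the endothelial surface, and Mmrn2 a matrix protein that binds Cd93 and Clec14a. Plvap (1418090_at), which forms the diaphragms of fenestrated capillaries, was at 6.8, 7.5 and 7.3 on the epithelial arrays and 13.0, 12.8 and 12.6 on the mesenchymal arrays. Its epithelial values were below the background limit on all 3 arrays, and the measured difference was 5.60 ± 0.24. Cd93 (1456046_at), a C-type lectin-like receptor, was at 7.2, 7.8 and 7.3 on the epithelial arrays and 12.2, 12.2 and 12.1 on the mesenchymal arrays, a difference of 4.73 ± 0.23. Of its other 4 probe sets, 1419589_at gave 4.70 ± 0.23 and 1441907_s_at 2.37 ± 0.24, while 1449521_at (0.83 ± 0.23) and 1441908_x_at (-0.33 ± 0.25) were not called. The last is the only member probe set with a lower mean in the mesenchyme, and its arrays overlap between tissues. Clec14a differed by 2.50 ± 0.23 and 2.93 ± 0.26 with its 2 probe sets. Mmrn2 was called with all 4 of its probe sets, by 1.40 ± 0.23 with the representative and by 3.77 ± 0.23 with 1456768_a_at.

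Receptors of endothelial growth and guidance signals were all called. Tie1 (1416238_at), the partner of the angiopoietin receptor Tek, was at 6.6, 7.4 and 7.0 on the epithelial arrays and 10.8, 10.9 and 10.5 on the mesenchymal arrays, a difference of 3.73 ± 0.24 (adjusted p = 7.25e-16). Robo4, a receptor that stabilizes vessels, differed by 2.90 ± 0.23. Eng (1417271_a_at), a co-receptor for BMP and TGF-beta ligands, was at 9.5, 9.9 and 10.0 on the epithelial arrays and 12.1, 12.1 and 12.0 on the mesenchymal arrays, a difference of 2.27 ± 0.23. The epithelial arrays of Eng were above the background limit, and its other probe set gave 2.67 ± 0.23. S1pr1 (1423571_at), a receptor that strengthens endothelial contacts, was at 8.9, 9.1 and 9.2 on the epithelial arrays and 10.3, 10.4 and 10.3 on the mesenchymal arrays. The tissues did not overlap and the difference was 1.27 ± 0.23, but it fell under 1 with equal array medians (0.97), quantile normalization (0.96), cyclic loess (1.00, rounded) and ribosomal centring (0.90), which ended the call. Rasip1, which acts inside the cell in the opening of the vessel lumen, differed by 2.70 ± 0.23.

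The ligand-receptor pairs of apelin and adrenomedullin could be compared by part. Aplnr (1438651_a_at), the apelin receptor, was at 6.1, 7.0 and 6.3 on the epithelial arrays and 12.9, 12.9 and 12.6 on the mesenchymal arrays, a measured difference of 6.33 ± 0.24 (adjusted p = 6.64e-22). Its epithelial arrays were all under the background limit, so the bound of at least 36.5-fold stands in place of a fold. Its other probe set (1423037_at) was at 8.0, 8.3 and 8.3 on the epithelial arrays and 10.6, 10.5 and 10.3 on the mesenchymal arrays, a difference of 2.27 ± 0.23. Both probe sets separated the tissues. Apln (1451038_at), the ligand, was at 9.2, 9.9 and 9.5 on the epithelial arrays and 10.8, 10.9 and 10.6 on the mesenchymal arrays. All its epithelial arrays were above the background limit, the difference was 1.23 ± 0.23 (adjusted p = 3.91e-05), and its call ended with equal array medians (0.93), quantile normalization (0.99) and ribosomal centring (0.86).

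Calcrl, the receptor core for adrenomedullin, is made specific for it by Ramp2. Ramp2 (1418187_at) was at 7.9, 8.4 and 7.9 on the epithelial arrays and 12.2, 12.1 and 11.8 on the mesenchymal arrays, a difference of 3.97 ± 0.23 (adjusted p = 6.29e-17). The representative of Calcrl (1418489_a_at) was at 7.0, 7.3 and 7.3 on the epithelial arrays and 9.8, 9.6 and 8.9 on the mesenchymal arrays, with the widest mesenchymal spread of the members (SD of 0.47, n = 3) and a difference of 2.23 ± 0.24. Another probe set of Calcrl (1425814_a_at) was at 5.3, 5.7 and 5.7 on the epithelial arrays and 11.2, 10.8 and 10.7 on the mesenchymal arrays, a difference of 5.33 ± 0.23. Its epithelial arrays were under the background limit, so that it was at least 9.77-fold higher in the mesenchyme. The third (1459536_at) gave 0.20 ± 0.23 and lay under the background limit on all 6 arrays. The ligand Adm, no member, differed by 0.93 ± 0.23 and was not called.

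Secreted products and enzymes of vessels followed. Vwf (1435386_at), the clotting factor stored in endothelial granules and platelets, was at 6.1, 6.4 and 6.7 on the epithelial arrays and 10.5, 10.7 and 10.2 on the mesenchymal arrays, a difference of 4.07 ± 0.24 (adjusted p = 4.04e-17). Its epithelial arrays were all under the background limit. Nos3 (1422622_at), the endothelial nitric oxide synthase, was at 7.9, 7.9 and 7.6 on the epithelial arrays and at 9.6 in each mesenchymal array, a difference of 1.80 ± 0.23. Gpihbp1 (1453022_at), which carries lipoprotein lipase to the capillary lumen, was at 9.0, 9.5 and 9.4 on the epithelial arrays and 11.4, 11.3 and 11.3 on the mesenchymal arrays, a difference of 2.03 ± 0.23. Lpl, its enzyme partner and no member, was higher in the mesenchyme by 2.23 ± 0.23. Madcam1 (1425253_a_at), which recruits lymphocytes to gut vessels, was at 7.7, 8.0 and 8.3 on the epithelial arrays and 10.7, 10.6 and 10.6 on the mesenchymal arrays, a difference of 2.63 ± 0.23. This is the direction in which the pools had been chosen.

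Egfl7, a secreted protein of the vessel matrix, depended on the probe set. Its representative (1451427_a_at) was at 11.2, 11.5 and 11.2 on the epithelial arrays and 11.6, 11.6 and 11.8 on the mesenchymal arrays. The arrays did not overlap, but the difference of 0.37 ± 0.23 did not pass (adjusted p = 0.208), and it was -0.0035 with ribosomal centring. The other 3 probe sets were called, by 3.93 ± 0.28 (1435823_x_at), 3.03 ± 0.23 (1451428_x_at) and 2.50 ± 0.22 (1421335_a_at), and their mean with the representative gave 2.46.

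Lymphatic members came next. Lyve1 (1429379_at), a hyaluronan receptor of lymphatic vessels that some macrophages also carry, was at 6.5, 7.6 and 6.4 on the epithelial arrays and 12.2, 12.2 and 11.8 on the mesenchymal arrays. Epithelium B stood above the other epithelial arrays (SD of 0.67, n = 3), and all 3 were under the background limit. The difference was 5.23 ± 0.26 (adjusted p = 7.33e-19) and was 4.33 ± 0.24 with the other probe set. Mmrn1 (1437260_at), a matrix protein of lymphatic vessels and platelets, was at 6.5, 6.9 and 6.4 on the epithelial arrays and 11.3, 10.9 and 10.6 on the mesenchymal arrays, a difference of 4.33 ± 0.24. A second Mmrn1 probe set (1430621_at) was under the background limit on all arrays and gave 0.20 ± 0.23. Stab1 (1450199_a_at), a scavenger receptor of lymphatic cells and macrophages, was at 7.2, 7.2 and 7.0 on the epithelial arrays and 11.4, 11.4 and 10.9 on the mesenchymal arrays, a difference of 4.10 ± 0.23. Pdpn (1419309_at), a membrane sialoprotein of lymphatic cells, mesothelium and some fibroblasts, was at 8.3, 8.6 and 8.3 on the epithelial arrays and 10.7, 10.6 and 10.6 on the mesenchymal arrays, a difference of 2.23 ± 0.23.

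Prox1, the factor that sets lymphatic identity, gave low signal. Its representative (1421336_at) was at 6.0, 6.4 and 6.2 on the epithelial arrays and 6.9, 6.6 and 7.2 on the mesenchymal arrays, under the background limit on all 6 arrays. The difference of 0.70 ± 0.23 had an adjusted p of 0.0145 but did not reach the minimum size, except with spike-in scaling (1.01, adjusted p = 0.041). The probe set 1437894_at was at 5.5, 5.8 and 5.7 on the epithelial arrays and 7.7, 6.7 and 7.0 on the mesenchymal arrays and was called (1.47 ± 0.25, adjusted p = 6.11e-06), with mesenchyme A alone above the limit. The third, 1457432_at, gave 0.37 ± 0.23 and was under the limit on all arrays. Of 9 measured further lymphatic genes, all were called higher in the mesenchyme, led by Tek, Sox18 (3.50 ± 0.24), a factor upstream of Prox1, and Flt4 (2.97 ± 0.24), the receptor for Vegfc. The share of all genes called higher in the mesenchyme was 15.9%. That lymphatic list shares Tek, Flt4, Nrp2, Sox18 and Foxc2 with the lists of vessel signals and factors below.

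The transcription factor members had the lowest median difference by representative, while other probe sets of the same genes gave larger values. Fli1, an ETS factor of endothelium and blood, was at 7.8, 7.8 and 7.4 on the epithelial arrays and 10.2, 10.1 and 10.0 on the mesenchymal arrays with 1422024_at (2.43 ± 0.23). With 1433512_at it was at 5.2, 5.2 and 5.3 on the epithelial arrays and 10.8, 10.8 and 10.3 on the mesenchymal arrays (5.40 ± 0.23, adjusted p = 9.52e-21). These epithelial values lay under the background limit, which gave a bound of at least 8.12-fold for this probe set. Ets1, an ETS factor that lymphocytes also make, was at 8.3, 9.0 and 8.6 on the epithelial arrays and 10.0, 10.1 and 9.9 on the mesenchymal arrays with 1422027_a_at (1.37 ± 0.23, 1.00 with ribosomal centring, where the call ended). With 1452163_at it was at 5.4, 5.7 and 5.6 on the epithelial arrays and 12.4, 12.3 and 12.1 on the mesenchymal arrays. That measured difference was 6.70 ± 0.23 (adjusted p = 1.93e-23), and 1426725_s_at gave 5.70 ± 0.23. Both lay under the background limit on all epithelial arrays, and as bounds they were at least 25.2-fold and at least 18.2-fold higher in the mesenchyme. The fourth, 1422028_a_at, gave 0.60 ± 0.23 and was not called.

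Erg, the ETS factor most typical of endothelium, was not called with its representative (1425370_a_at), which was at 8.5, 8.8 and 8.5 on the epithelial arrays and 9.1, 9.2 and 9.1 on the mesenchymal arrays. The arrays did not overlap and the difference was 0.53 ± 0.23 (adjusted p = 0.0563). With 1440244_at it was at 6.5, 6.8 and 7.0 on the epithelial arrays and 10.2, 9.8 and 10.0 on the mesenchymal arrays, a called difference of 3.23 ± 0.23 (adjusted p = 1.91e-14). The epithelial arrays of this probe set were under the background limit, for a bound of at least 5.24-fold. Tal1 (1449389_at) and Lmo2 (1454086_a_at) act together in a complex of blood and endothelial precursors. Tal1 was at 6.8, 7.2 and 6.9 on the epithelial arrays and 9.2, 9.0 and 8.6 on the mesenchymal arrays (1.97 ± 0.23), and Lmo2 at 9.2, 9.9 and 9.7 and at 11.2, 11.2 and 11 (1.53 ± 0.23). Both separated the tissues with their only probe set.

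Several members thus gave unequal values from one probe set to the next. Of 14 members with several probe sets, the representative gave the largest difference for 4 (Aplnr, Cd93, Lyve1 and Mmrn1), and the probe sets of 7 differed in their call. Within a gene the spread between lowest and highest difference reached 6.10 for Ets1, 5.13 for Calcrl and 5.07 for Cd93, and was 0.03 for Podxl. With the mean of all probe sets of a gene, 31 members were called, Egfl7 and Erg (1.88) in addition, and 14.9% of all genes were called higher in the mesenchyme. With at least 1 probe set, 32 members were called, all but Podxl, and so were 21.7% of all genes. A difference of at least 3 was reached by 12 representatives, against 2.62% of all genes, and by at least 1 probe set of 18 members, against 3.91%. Of the 11 member probe sets that were not called, 4 lay under the background limit on all mesenchymal arrays. Among the 47 that were called, 23 lay under it on all epithelial arrays, so the size of their differences was not measured above background.

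**Figure D2:**
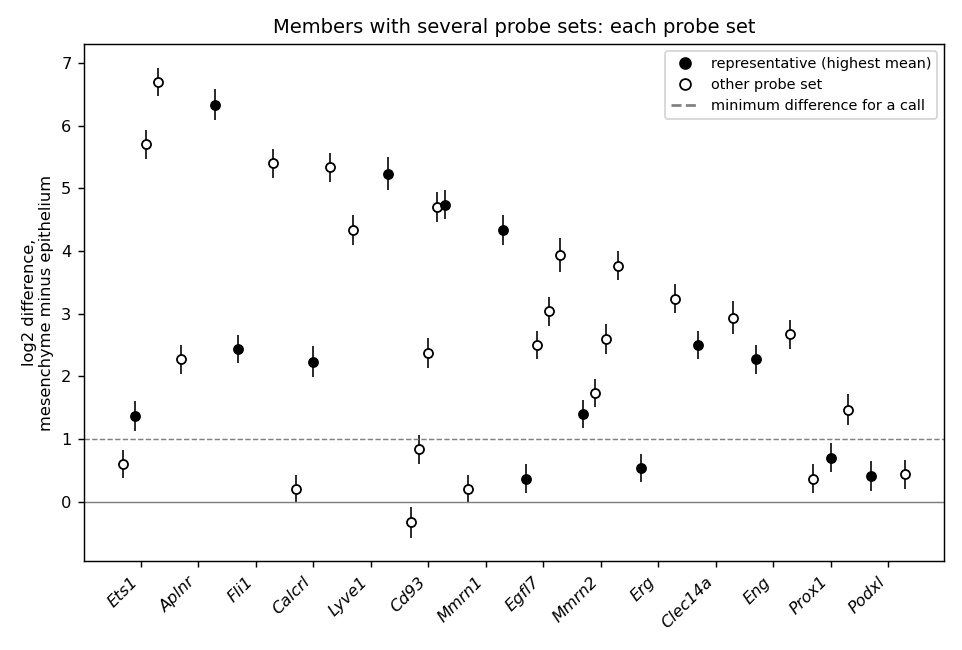
Log2 difference, mesenchyme minus epithelium (vertical axis), for each probe set of the 14 members with several, with bars of 1 standard error from limma. Filled points are representatives and the dashed line is the minimum difference of 1. The probe sets of Ets1 range from 0.60 to 6.70 and those of Erg from 0.53 to 3.23, whereas those of Podxl are 0.40 and 0.43.

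Signal of the members in the epithelium was measured on the linear scale, by representative probe set. For the 18 called members with epithelial signal above the background limit on at least 1 array, the epithelial level was 6.40% (Ramp2) to 42.5% (Apln) of the mesenchymal level. For the 11 without, it was at most 2.74% (Aplnr and Plvap) to at most 40.0% (Tal1). Only 3233 of 18161 genes had no epithelial array above the limit, so a level above it may still hold probe background. The erythroid gene Klf1, for example, averaged 9.50 on epithelial and 9.47 on mesenchymal arrays. The percentages of the 18 may thus be overstated, which was not tested. The median over all 33 members was 17.7%, also with these 11 at their bound, against 89.1% over all genes. From the levels as measured, also those under the limit, the median was 1.42% for 7 smooth muscle genes (1.90% without Actg2, by which pools were picked), 20.8% for 8 pericyte genes and 11.9% for 14 genes of leukocytes and macrophages. The median epithelial level was 7.9 for the members and 8 for the smooth muscle genes, while the median mesenchymal levels were 10.77 and 14.23. The percentages thus depend on the mesenchymal level too and do not rank these lists by their epithelial signal. For 12 of the 33 members no epithelial array was above the background limit, while the mesenchymal arrays were all above it for 32, the exception being Prox1. Among the 47 called probe sets, the 23 with no epithelial array above the limit had a median difference of 4.10, and the 20 with all 3 epithelial arrays above it one of 2.27. The epithelial level enters both quantities, so this is a description. The 10 epithelial genes were all called higher in the epithelium, as were the 8 left without Vil1 and Prkg2, by which pools were picked.

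The pathways around the members were read from further lists. Of 10 VEGF ligands and receptors, 8 were called higher in the mesenchyme, led by Nrp1 (4.23 ± 0.23), a co-receptor, Flt4 and, with 2.13 ± 0.22 each, Nrp2 and Kdr. The ligand Vegfa (-0.50 ± 0.23, adjusted p = 0.0847) and Vegfb (0.67 ± 0.24) were not called. Of 5 genes listed as angiopoietin-Tie partners, 4 were called, Tek (4.50 ± 0.24), the phosphatase Ptprb (3.43 ± 0.23) and the ligands Angpt1 (2.07 ± 0.24) and Angpt2. The remaining gene, Angptl4, is angiopoietin-like rather than a Tie partner and was not called (0.33 ± 0.23). Of 18 measured partners of member receptors and ligands, 9 were called, all higher in the mesenchyme, led by S1pr3 (5.30 ± 0.23), a second sphingosine-1-phosphate receptor, the BMP receptor Acvrl1 (2.53 ± 0.23), which works with endoglin, and Slit2 (2.30 ± 0.23). Of 19 further endothelial factors, 12 were called higher in the mesenchyme, led by the ETS factor Elk3 (5.73 ± 0.23), Mef2c (3.70 ± 0.23) and Sox18. Vegfc stands in the first list and the third. The median differences of these lists were 1.58, 2.07, 1.10 and 2.17. No gene of these 4 lists was called higher in the epithelium, against 8.19% of all genes. The share of all genes called higher in the mesenchyme was 15.9%.

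**Figure D3:**
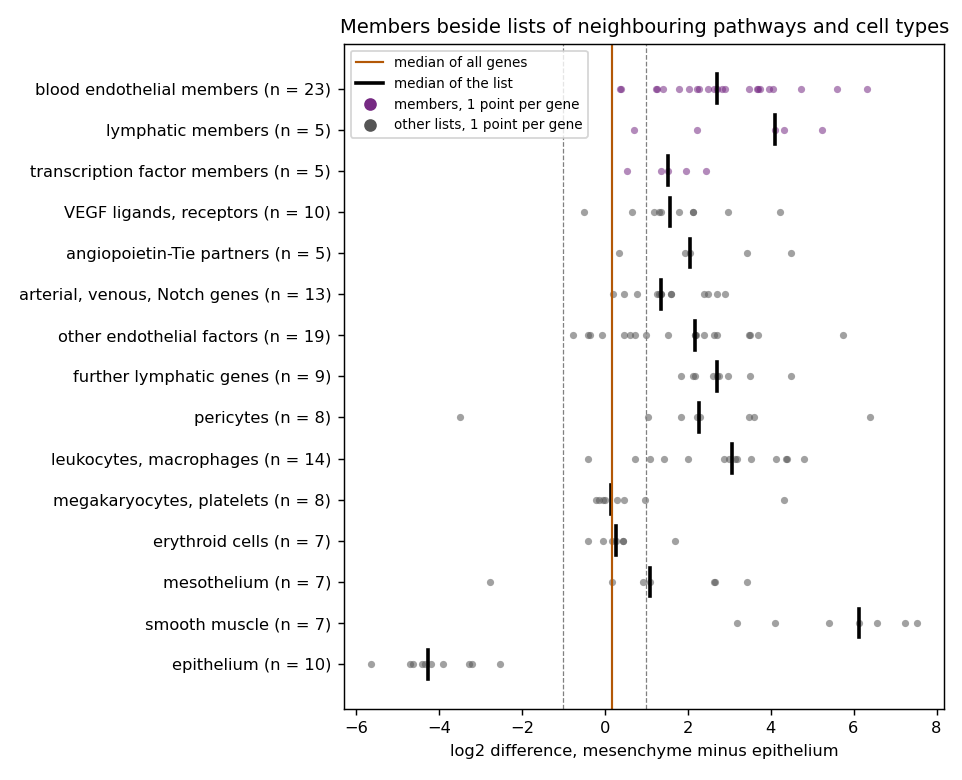
Log2 difference, mesenchyme minus epithelium (horizontal axis), for the genes of each list, 1 point per gene, with black bars at the list medians and an orange line at the median of all genes (0.17). The members' medians are 2.70, 4.10 and 1.53, leukocytes and macrophages stand at 3.07, and megakaryocytes and platelets at 0.15.

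Other cells that make some of the members were followed by their own markers. Of 14 genes of leukocytes and macrophages, which share Pecam1, Icam2, Fli1, Ets1, Lyve1 and Stab1 with endothelium, 12 were called higher in the mesenchyme, led by C1qb (4.80 ± 0.23), Ptprc (4.40 ± 0.23) and Coro1a (4.37 ± 0.24). Their summed level (log2 of the linear sum) was 13.71 to 14.12 in the epithelium and 15.05 to 15.20 in the mesenchyme. Csf1r, which was not called, made up 78.8% to 80.6% of the epithelial sum, and without it the sum was 11.35 to 11.80 and 14.61 to 14.79. Of 8 measured genes of megakaryocytes and platelets, which share Vwf and Mmrn1, Pf4 alone was called (4.33 ± 0.25). That is 12.5% of the list, against 15.9% of all genes, and the median difference was 0.15. The summed level was 11.51 to 11.79 and 12.37 to 12.56. Its rise rests mostly on Pf4, which averaged 6.90 and 11.23, the highest mesenchymal mean of the list. Clec1b and Ppbp were under the background limit on all mesenchymal arrays. Of 7 measured erythroid genes, which stand for the lineage that shares Tal1 and Lmo2, Alas2 alone was called (1.70 ± 0.24). That is 14.3% of the list, also under the share of all genes, and the median difference was 0.27. The summed level was 11.23 to 11.58 and 11.84 to 11.92, a rise to which Alas2 gave the most. Hba-a1 and Rhag were under the limit on all mesenchymal arrays. Of 7 mesothelial genes, 4 were called higher in the mesenchyme, led by Gpm6a (3.43 ± 0.23), and Krt19 was higher in the epithelium by 2.77 ± 0.23 (-2.77 as mesenchyme minus epithelium). Their summed level was 13.20 to 13.64 in the epithelium and 12.63 to 12.69 in the mesenchyme. Krt19, also a keratin of epithelia, made up 68.9% to 75.6% of the epithelial sum, and without it the order turned, with 11.17 to 11.71 and 12.38 to 12.41. The part of these cells in the members' differences was not tested.

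Within the mesenchyme, the members tended to be lowest in array C. Mesenchyme C alone held the lowest of the 3 values for 21 of 33 members (63.6%), mesenchyme B for 3 and mesenchyme A for 0, with 9 ties, and it did so for 23.6% of all genes. Against mesenchyme A, array C was lower for 26 members, equal for 5 and higher for 2, with a median of -0.20 and a median of 0 over all genes. Against mesenchyme B it was lower for 25, equal for 4 and higher for 4, with a median of -0.20 and of 0.10 over all genes. After quantile normalization the median against A was 0, with 16 members lower and 15 higher, while that against B was -0.18. After cyclic loess the medians were -0.09 and -0.26. Array C alone was lowest for 4 of 7 smooth muscle genes, 3 of 8 pericyte genes and 4 of 14 genes of leukocytes and macrophages. The summed level of the 10 epithelial genes was highest there, at 13.12, 12.89 and 13.77 on mesenchyme A, B and C. Whether epithelial RNA in pool C has a part in the members' pattern was not tested. These are single pools and values rounded to 0.1, so the pattern was not tested. The SD of the members had a median of 0.15 in the mesenchyme and 0.26 in the epithelium (n = 3 each). In the epithelium, array B alone was highest for 20 members (60.6%) and for 75.4% of all genes.

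**Figure D4:**
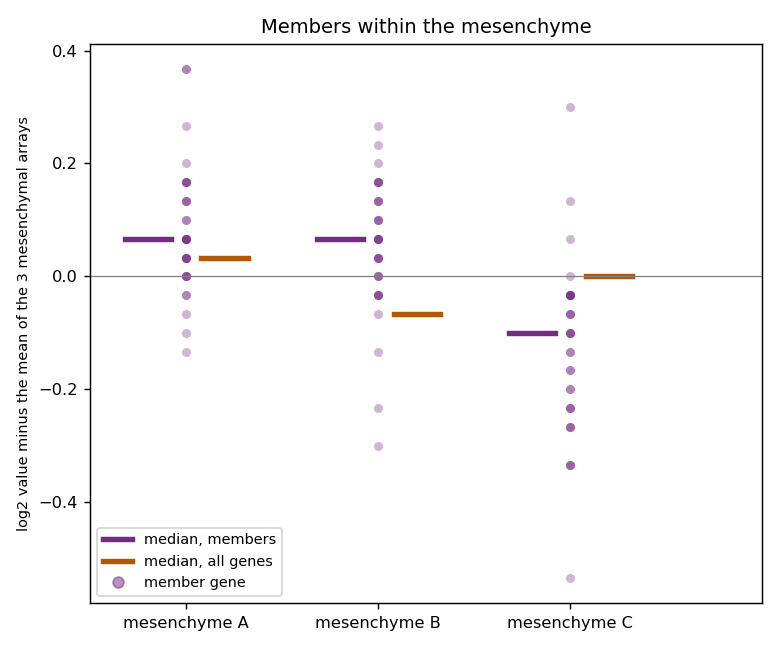
Log2 value of each member minus its mean over the 3 mesenchymal arrays (vertical axis), 1 point per gene (representative probe set) and array, with bars at the medians of the 33 members and of all genes. The members' median is -0.10 in mesenchyme C and 0.07 in mesenchyme A and B, where all genes have 0, 0.03 and -0.07.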

How the data were processed

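Total RNA of 3 epithelial and 3 mesenchymal pools was hybridized to Affymetrix whole-genome mouse arrays, 1 pool of 3 embryos per array, and samples were grouped by their titles. The deposited table holds log2 values, 1 per probe set and array, that the submitters' processing notes credit to RMA, with the version and settings not given in the sources used here. They are rounded to 0.1, range from 4.6 to 15.2 and carry no detection calls. Of 45101 probe sets, 64 controls were set aside. Of the rest, 34945 had 1 gene symbol, 932 several and 9160 none in the platform annotation, and 59 symbols were updated through RefSeq (GRCm38.p6). Probe sets with several symbols named no gene.

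All 45037 probe sets were fitted with limma (version 3.58.1, R 4.3.3, lmFit and eBayes, no covariate, 4 residual and 31.7 prior degrees of freedom). The Benjamini-Hochberg adjustment ran over 18161 genes for representatives and over all probe sets for the others. The script was tested on simulated data. All 33 members were named. Of other lists, counts are given with the 3 largest differences and any gene called in the minority direction, beside the 4 endothelial markers of the label check. Adm, Lpl, Vegfa, Vegfb, Angpt2, Angptl4, Dll4, Csf1r and genes under the background limit were named in addition after their values were seen. The members and lists were chosen with earlier results of these data known. Alternatives were 5 scalings, a filter on dim probe sets, other ways to represent a gene, other tests, the letter as a block and each array left out. Sums and lists without single genes were added after seeing the data.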

Additional observations from a re-analysis of the deposited data

How the results depend on the processing

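All 29 called members kept their direction under every alternative run. The count of called members was 26 with ribosomal centring, 27 with equal array medians and with quantile normalization, 28 with cyclic loess, 30 with spike-in scaling and with the adjusted p alone, 31 with the mean of all probe sets, and 29 under each of the others, among them the trend, the fit without moderation, the filter on dim probe sets and each array left out. The calls that ended were those of S1pr1, Apln and Ets1, as given above. Egfl7 changed sign with ribosomal centring (-0.0035), where it was not called in either setting. Over all genes, 4380 were called, and 7490 with the adjusted p alone. The share of all called genes that was higher in the mesenchyme was 66.0% in the deposited values, 44.7% with ribosomal centring, 49.4% with equal medians, 53.0% with quantile normalization, 55.4% with cyclic loess and 79.8% with spike-in scaling, and the median difference over all genes shifted by -0.37, -0.30, -0.27, -0.21 and 0.31. The mean of the spike-in controls was 9.32 on mesenchyme B, against 10.20 to 10.51 on the other arrays. Without that array, an alternative chosen after seeing the data, spike-in scaling gave 29 members and 66.2%. The labels do not say whether epithelium and mesenchyme of the same letter came from the same embryos. Correlations between deviations of same-letter arrays were -0.31, -0.15 and 0.12 for A, B and C. Between arrays of different letters they ran from -0.25 to 0.36. With so few arrays per tissue, these values cannot decide whether the arrays are paired. The replicate block left 29 members and 4363 genes called. The share of all genes called higher in the mesenchyme moved with these counts, from 15.9% to 10.4%, 11.5%, 11.9%, 12.3% and 23.4% in that order of scalings, to 27.4% with the adjusted p alone and to 14.9% with the mean of probe sets. The representative of Prox1 lay under the background limit on all 6 arrays, so the size of its difference was not measured above background.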

Other observations

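Genes of arterial, venous and Notch identity were also read, beside 15.9% of all genes called higher in the mesenchyme and 8.19% in the epithelium. Of 13, 10 were called, all with the higher level in the mesenchyme, led by the ligand Jag1 (2.90 ± 0.23), the endothelial receptor Notch4 (2.70 ± 0.25) and the gap junction gene Gja4 (2.50 ± 0.24). The tip cell ligand Dll4 (0.77 ± 0.23) did not reach the minimum size, and Hey2, called at 1.37 ± 0.23, was under the background limit on all mesenchymal arrays. Of 7 genes of endothelial junctions, Jam3 (3.23 ± 0.23), Cdh5 (2.63 ± 0.23) and Cldn5 (2.40 ± 0.23) were called higher in the mesenchyme, while Ocln, a tight junction protein of epithelia as well, was higher in the epithelium (-1.47 ± 0.23). Of 8 pericyte genes, 7 were called higher in the mesenchyme, led by Rgs5 (6.40 ± 0.23) and Kcnj8 (3.60 ± 0.23), and Anpep, also a brush border peptidase, was higher in the epithelium (-3.50 ± 0.23).

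Ramp2 has 2 further probe sets that the annotation assigns to both Ramp2 and its neighbour Vps25 and that entered no comparison above. Probe set 1421051_s_at was at 10.4, 11 and 10.0 on the epithelial arrays and 10.5, 9.8 and 10.3 on the mesenchymal arrays (-0.27 ± 0.25), and 1428621_a_at at 10.8, 11.4 and 11 and at 11, 10.8 and 10.9 (-0.17 ± 0.23). Neither was called, and their arrays overlap between tissues.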
